A study of Mus musculus with 45 samples.

Results

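The genes described here are 5 handlers of zinc in the mouse ileum, the metallothioneins Mt1 and Mt2 and the zinc transporters Slc30a1, Slc30a2 and Slc39a4, out of 19494 genes measured. They were chosen by their levels on these same arrays, with earlier results of the data known, so their values are given as a description, without a test. Each gene had 1 probe. RNA from pieces of whole ileum was hybridised to 45 arrays, each from a separate mouse, with 9 groups of 5, and the deposited log2 intensities are used throughout. The mice were 11 weeks old per the sample labels (10 to 12 weeks per the series text), and were housed under SPF conditions on a regular chow.

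The groups were FADD IEC-KO CASP8 IEC-KO Mlkl -/- (called the triple mutant below), FADD IEC-KO Mlkl -/-, then FADD IEC-KO Zbp1 -/- and next FADD IEC-KO RIPK3 IEC-KO, FADD IEC-KO and Fadd fl/fl, followed by CASP8 IEC-KO Mlkl -/-, CASP8 IEC-KO and Casp8 fl/fl. IEC-KO stands for deletion in intestinal epithelial cells, -/- for a deletion in the whole animal, and fl/fl for floxed alleles that were left intact. FADD joins death receptors to the protease caspase-8, RIPK3 and its substrate MLKL carry out necroptosis, and ZBP1 is a nucleic acid sensor upstream of RIPK3. The labels name no Cre line, do not say whether the floxed mice carried a transgene, and do not give the sex. The genotype field of the triple mutant leaves out FADD; its titles give FADD, and Fadd was low in that group.

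Metallothioneins are small, cysteine-rich proteins that bind zinc and copper, and their genes are switched on by the zinc sensor MTF1 through metal response elements in their promoters, and also by glucocorticoids. In the small intestine the protein of Slc39a4 (ZIP4) imports dietary zinc across the apical membrane of enterocytes, and that of Slc30a1 (ZnT1) exports it across the basolateral side. The protein of Slc30a2 (ZnT2) loads zinc into vesicles, and in mice it supplies the secretory granules of Paneth cells, the crypt cells that release antimicrobial peptides.

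The promoters of both metallothionein genes and of Slc30a1 are shown because these genes are textbook MTF1 targets. The windows run from 250 bases before to 50 bases after a transcription start and come from RefSeq (GRCm38.p6), on the plus strand in each case. For Mt1, Slc30a1 and Slc30a2 this start lies inside the gene bounds given below, so it is not their lowest base. Capitals mark the 7-base core of the metal response element, searched as TGCACNC and as TGCGCNC on both strands; no matches overlapped.

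Mt1, chr8:94178839-94179138: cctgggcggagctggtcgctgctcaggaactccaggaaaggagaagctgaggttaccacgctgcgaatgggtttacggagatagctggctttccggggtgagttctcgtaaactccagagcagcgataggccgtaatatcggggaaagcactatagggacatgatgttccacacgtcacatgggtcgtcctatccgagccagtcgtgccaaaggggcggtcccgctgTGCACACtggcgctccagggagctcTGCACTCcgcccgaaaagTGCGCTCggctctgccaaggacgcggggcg

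Mt2, chr8:94172368-94172667: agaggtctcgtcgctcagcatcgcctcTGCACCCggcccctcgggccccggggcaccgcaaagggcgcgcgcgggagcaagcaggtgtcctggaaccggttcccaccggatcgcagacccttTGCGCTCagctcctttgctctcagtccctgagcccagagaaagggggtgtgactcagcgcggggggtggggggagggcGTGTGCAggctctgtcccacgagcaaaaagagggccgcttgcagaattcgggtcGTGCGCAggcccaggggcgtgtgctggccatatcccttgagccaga

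Slc30a1, chr1:191906531-191906830: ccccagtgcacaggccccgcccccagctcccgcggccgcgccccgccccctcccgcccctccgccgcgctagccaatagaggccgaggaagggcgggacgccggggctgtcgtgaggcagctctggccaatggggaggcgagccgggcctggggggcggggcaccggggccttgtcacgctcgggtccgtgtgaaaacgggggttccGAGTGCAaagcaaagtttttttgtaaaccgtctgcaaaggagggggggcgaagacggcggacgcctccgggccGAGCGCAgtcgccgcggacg

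Mt1 held 3 cores, at -23, 3 and 21 from the start used for its window, and 1.97% of 32851 promoter windows held at least as many. Mt2 held 4 cores, at -223, -128, -50 and 5, which 0.517% of windows matched or exceeded. Slc30a1 and Slc30a2 (chr4:134343216-134343515) held 2 cores each, 7.11% of windows held 2 or more, and 25.7% of all windows held 1 or more. Mt1 and Mt2 are neighbours on chromosome 8, at 94178883 to 94180327 and 94172618 to 94173567. Slc30a1 lies on chromosome 1 (191906697 to 191913248), Slc30a2 on chromosome 4 (134343046 to 134354484) and Slc39a4 on chromosome 15 (76612383 to 76618506). A match to these letters describes the window and does not show binding. Sequence outside the windows, including that around any other start of the same gene, was not searched, so the counts are not of all cores of a promoter.

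Array medians lay between 6.36 and 6.44, and no pair of arrays was identical. Mean Fadd intensity was 6.05 to 6.45 in the 5 groups labelled FADD IEC-KO, against 7.43 to 7.53 in the others, and mean Casp8 intensity was 9.55 to 10.23 in the 3 groups labelled CASP8 IEC-KO, against 11.14 to 11.40. A pair of arrays stood apart in this check: FADD IEC-KO replicate 1 had a Fadd intensity of 7.32, near the 7.46 to 7.61 of Fadd fl/fl, and CASP8 IEC-KO replicate 1 had a Casp8 intensity of 10.89, the highest of its group. Values without them are given beside the differences that they moved most. Mean Mlkl intensity was 7.14 in the triple mutant, against 8.62 to 9.28 in the groups not labelled Mlkl -/-. It was 8.05 in FADD IEC-KO Mlkl -/- mice and 8.43 in CASP8 IEC-KO Mlkl -/- mice. Both overlapped their floxed groups, the latter with 8.18 to 8.66 against 8.43 to 8.98. Loss of MLKL is thus taken from the labels. Mean Ripk3 and Zbp1 were lowest where labelled deleted (7.50 and 6.04), against 8.03 to 8.94 and 6.85 to 8.38 elsewhere, both with overlap. Group means of 6 genes of ileal position (such as Fabp6) were between 10.52 and 10.75, and those of 8 pancreatic acinar genes were between 5.31 and 5.40, below the array medians. Titles carried numbers of 31 to 84 or of 200 to 238, whose meaning the labels do not give. Values within each range are given for some of the differences that turned in sign or moved widely, not for all. Few mice remain within a range. FADD IEC-KO, Casp8 fl/fl and CASP8 IEC-KO Mlkl -/- each had 1 mouse at 200 and over, and Fadd fl/fl had 2 under 100. A sign turn there can thus come from a single mouse. The triple mutants all carried numbers of 200 or more and the FADD IEC-KO Mlkl -/- mice all carried low ones. Signal of Y-linked genes was present in 5 of 5 FADD IEC-KO RIPK3 IEC-KO mice and in 2 or 3 of 5 in every other group. In whole tissue, fewer cells of a type and less RNA per cell cannot be told apart.

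Mt1 separated every mutant mouse from every floxed mouse. Its log2 intensity was 12.53, 12.57, 12.58, 12.58 and 12.58 in the triple mutant, 12.63, 12.49, 12.52, 12.65 and 12.61 in FADD IEC-KO Mlkl -/- mice, and 12.49, 12.57, 12.56, 12.66 and 12.51 in FADD IEC-KO Zbp1 -/-. In mice of the FADD IEC-KO RIPK3 IEC-KO group it was 12.65, 12.57, 12.57, 12.75 and 12.67. It was 12.01, 12.61, 12.58, 12.76 and 12.68 in FADD IEC-KO, against 11.55, 11.39, 11.10, 11.46 and 11.33 in Fadd fl/fl. It was 12.52, 12.48, 12.45, 12.53 and 12.42 in CASP8 IEC-KO Mlkl -/- mice and 12.29, 12.68, 12.66, 12.65 and 12.54 in CASP8 IEC-KO, against 11.34, 11.47, 11.66, 11.57 and 11.61 in Casp8 fl/fl. The 35 mutant arrays thus formed a high band and the 10 floxed arrays a low band with a gap between them, whichever gene or genes were deleted. The mean of Mt1 over the 45 arrays was above that of 99.9% of genes, and the highest value of any probe was 13.41. Whether differences among the mutants are compressed at so high an intensity was not tested.

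The mutant arrays spanned 12.01 to 12.76 (median 12.57) and the floxed arrays 11.10 to 11.66 (median 11.47), and the means of the 2 sets differed by 1.11. Mt1 was the only 1 of the 19494 genes (0.00513%) in which every mutant array was above every floxed array; no gene was lower in this way, and the same held over all 22142 probes of the table. As Mt1 was chosen on these values, nothing further is read from that share. The difference to the floxed group was 1.16 ± 0.09 in FADD IEC-KO (2.23-fold, 2.25% of genes with every array higher) and 1.04 ± 0.09 in CASP8 IEC-KO (2.05-fold, 2.69% of genes); errors of differences are standard errors of the limma fit with n = 5 per group. It was 1.21 ± 0.09 for FADD IEC-KO Mlkl -/- mice (4.23% of genes with every array higher), 1.19 ± 0.09 for FADD IEC-KO Zbp1 -/- mice (2.78%), 1.27 ± 0.09 for FADD IEC-KO RIPK3 IEC-KO mice (1.69%) and 0.95 ± 0.09 for CASP8 IEC-KO Mlkl -/- mice (1.99%). Against both floxed groups together the triple mutant was higher by 1.12 ± 0.08 (1.21% of genes). These comparisons share their floxed mice, so their likeness is no independent evidence.

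Among the 7 mutant groups the order of Mt1 means ran from 12.48 in CASP8 IEC-KO Mlkl -/- to 12.64 in FADD IEC-KO RIPK3 IEC-KO mice, and no step between neighbours exceeded the pooled within-group SD of 0.14. Where MLKL, ZBP1 or RIPK3 was lost as well, Mt1 lay near its level in the single deletions. The difference was 0.05 ± 0.09 for FADD IEC-KO Mlkl -/- mice, 0.03 ± 0.09 for FADD IEC-KO Zbp1 -/- mice and 0.11 ± 0.09 for FADD IEC-KO RIPK3 IEC-KO mice, each against FADD IEC-KO, and -0.09 ± 0.09 for CASP8 IEC-KO Mlkl -/- against CASP8 IEC-KO. The triple mutant differed by -0.01 ± 0.09 from FADD IEC-KO Mlkl -/- and by 0.09 ± 0.09 from CASP8 IEC-KO Mlkl -/-. These errors pool the spread of all groups. The Mt1 SD was 0.02 in the triple mutant and 0.05 in CASP8 IEC-KO Mlkl -/-, but 0.30 in FADD IEC-KO. Without FADD IEC-KO replicate 1 the differences to FADD IEC-KO were -0.07 for FADD IEC-KO Mlkl -/-, -0.10 for mice of the FADD IEC-KO Zbp1 -/- group and -0.01 for FADD IEC-KO RIPK3 IEC-KO, so their sign rested on that mouse. The Zbp1 -/- difference was also 0.05 within title numbers under 100 and -0.10 within 200 and over, where FADD IEC-KO had 1 mouse. In the comparison of the triple mutant with CASP8 IEC-KO Mlkl -/-, 4.61% of genes had every array higher. Mt1 was among them, but the closest pair both read 12.53. The lowest mutant values, 12.01 and 12.29, came from the FADD IEC-KO and CASP8 IEC-KO mice whose targeted gene was nearest to the floxed level. Without them the differences to the floxed groups were 1.29 and 1.11. Within title numbers under 100 the difference was 1.02 in FADD IEC-KO and 1.03 in CASP8 IEC-KO. Within numbers of 200 and over it was 1.38, from 1 FADD IEC-KO mouse, and 0.99, against 1 Casp8 fl/fl mouse. Loss of the targeted genes, the transgene that made it and any Mt1 sequence such a transgene may carry cannot be told apart in these groups.

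**Figure D1:**
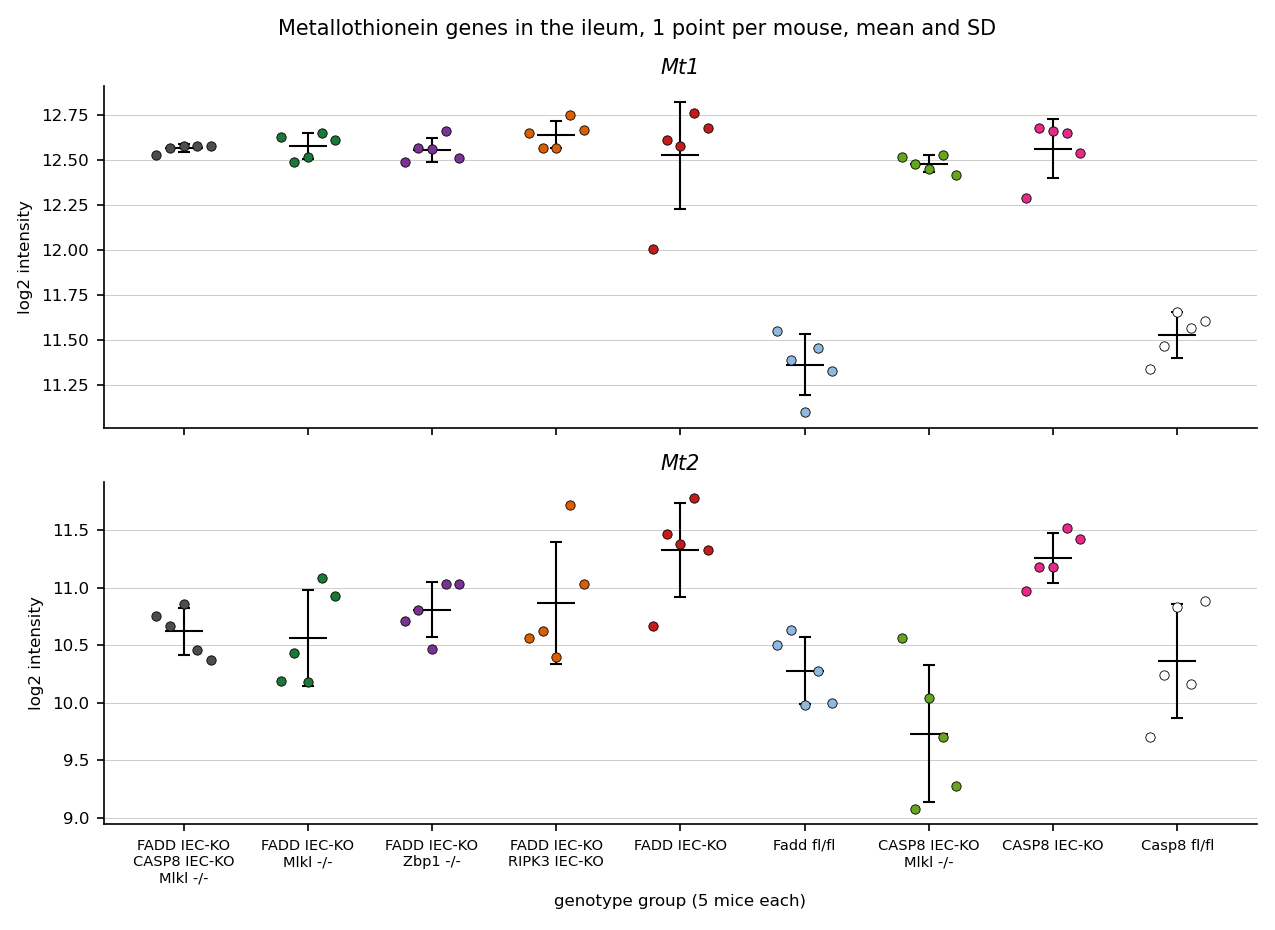
Log2 intensity of Mt1 (top) and Mt2 (bottom) by genotype group, with 1 point per mouse and the mean and SD of 5 mice in black. All 35 mutant mice lie at 12.01 or more for Mt1 and the 10 floxed mice at 11.66 or less. For Mt2 the mutant and floxed mice overlap as sets, although each single deletion lies above its own floxed group. CASP8 IEC-KO Mlkl -/- is lowest for Mt2, at a mean of 9.73.

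Mt2, the neighbouring gene, did not follow that band. Its mean was highest after loss of FADD or of CASP8 alone. It was lower in every group with a further deletion, whether of MLKL, ZBP1 or RIPK3. Its log2 intensity was 10.67, 11.47, 11.38, 11.78 and 11.33 in FADD IEC-KO, against 10.50, 10.63, 9.98, 10.28 and 10.00 in Fadd fl/fl. It was 10.97, 11.18, 11.18, 11.52 and 11.42 in CASP8 IEC-KO, against 9.70, 10.24, 10.83, 10.16 and 10.88 in Casp8 fl/fl. In both pairs every deleted mouse was above every floxed mouse, with a gap of a few hundredths in the FADD pair. The differences were 1.05 ± 0.24 (2.07-fold) and 0.89 ± 0.24 (1.85-fold). Without FADD IEC-KO replicate 1 the difference was 1.21, and without CASP8 IEC-KO replicate 1 it was 0.96. In each pair Mt1 and Mt2 were 2 of the 5 genes with every deleted array higher, beside 2.25% of all genes in the FADD pair and 2.69% in the CASP8 pair. Nothing is read from these counts, since the genes were chosen on the same values.

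Mt2 was 10.56, 9.08, 10.04, 9.70 and 9.28 in CASP8 IEC-KO Mlkl -/-, every array below all of CASP8 IEC-KO. The difference was -1.52 ± 0.24, and 1.97% of genes had every array lower. This group also had the lowest Mt2 mean of all 9 (9.73 ± 0.59, SD, n = 5), lower than Casp8 fl/fl by 0.63 ± 0.24, with overlap. In FADD IEC-KO Mlkl -/- the values were 10.19, 10.43, 10.18, 11.08 and 10.93, a difference of -0.77 ± 0.24 from FADD IEC-KO in which the arrays overlapped through FADD IEC-KO replicate 1; without that mouse it was -0.93. Mt2 averaged 10.81 ± 0.24 in FADD IEC-KO Zbp1 -/- mice and 10.87 ± 0.53 for FADD IEC-KO RIPK3 IEC-KO mice (SD, n = 5 each), differences of -0.52 ± 0.24 and -0.46 ± 0.24 from FADD IEC-KO, with overlap in both; without FADD IEC-KO replicate 1 they were -0.68 and -0.62. In the triple mutant it was 10.75, 10.67, 10.86, 10.46 and 10.37, a difference of 0.06 ± 0.24 from FADD IEC-KO Mlkl -/- and of 0.89 ± 0.24 from CASP8 IEC-KO Mlkl -/-. The last difference was large beside its error, but 1 mouse of CASP8 IEC-KO Mlkl -/-, at 10.56, lay inside the triple mutant range.

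Ordered by mean, Mt2 ran from CASP8 IEC-KO Mlkl -/- through the floxed groups, FADD IEC-KO Mlkl -/-, the triple mutant, FADD IEC-KO Zbp1 -/- mice and FADD IEC-KO RIPK3 IEC-KO mice to CASP8 IEC-KO (11.25) and FADD IEC-KO (11.33). Only 1 of the 8 steps, that above CASP8 IEC-KO Mlkl -/- (0.55), exceeded the pooled SD of 0.40. That SD was nearly as large as the spread of the 9 group means (0.50), whereas for Mt1 the SD of 0.14 stood against a spread of 0.49. Some Mt2 differences turned with the title number. The value in FADD IEC-KO RIPK3 IEC-KO differed from Fadd fl/fl by -0.04 within numbers under 100 and by 1.29 within 200 and over, where the pooled difference was 0.59 ± 0.24. Against FADD IEC-KO it was -0.80 and 0.04, the latter set against 1 mouse. For the FADD IEC-KO Zbp1 -/- mice the difference to Fadd fl/fl was 0.10 and 0.94 (pooled 0.53 ± 0.24). For the FADD IEC-KO Mlkl -/- mice, which have low numbers alone, it was -0.01 (pooled 0.28 ± 0.24).

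**Figure D2:**
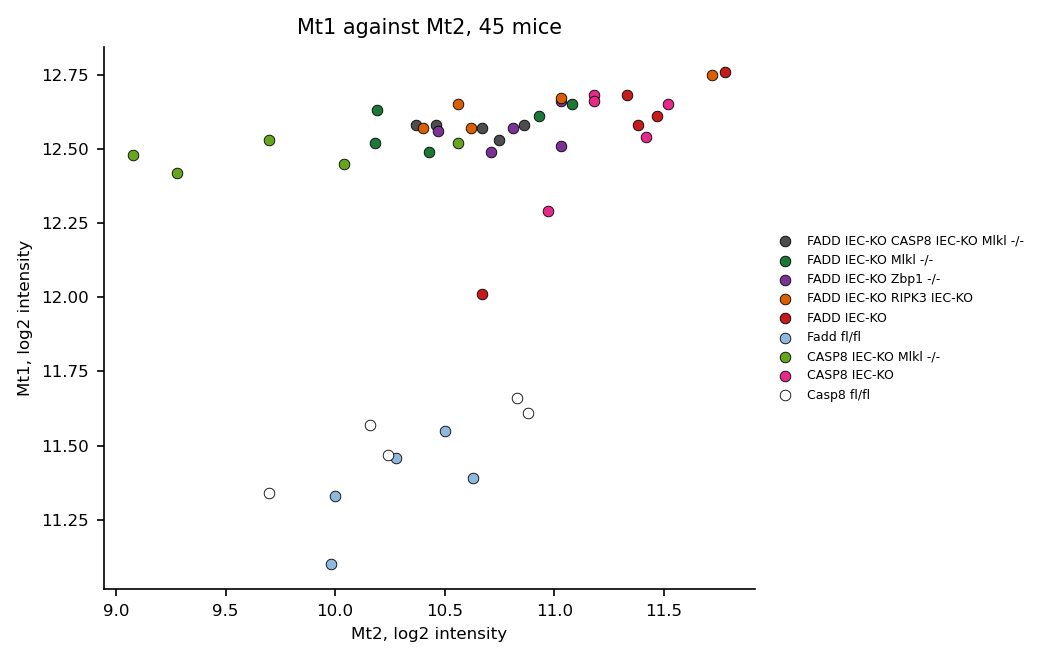
Log2 intensity of Mt1 (y axis) against Mt2 (x axis), 1 point per mouse, coloured by group. Mutant mice form a flat upper band in which Mt2 runs from 9.08 to 11.78, and floxed mice lie below it with Mt2 between 9.70 and 10.88.

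Genes that cycle over the day differed in the same group that had the lowest Mt2. A clock index, the mean of 7 genes such as Nr1d1 and Dbp minus the mean of 3 genes such as Arntl, averaged -1.91 in CASP8 IEC-KO Mlkl -/- (range -2.32 to -1.63), while the other 8 group means lay between -0.59 and 1.06. Of the 10 clock genes, 2 rose and 4 fell in CASP8 IEC-KO Mlkl -/- against CASP8 IEC-KO (limma, adjusted p under 0.05). In the triple mutant against CASP8 IEC-KO Mlkl -/-, 5 rose and 2 fell. Of all genes, 2.78% and 3.10% passed in these comparisons. The index was also used as a covariate, a choice made after the data were seen. The Mt2 difference of CASP8 IEC-KO Mlkl -/- from CASP8 IEC-KO was then -1.26. That of the triple mutant from CASP8 IEC-KO Mlkl -/- was 0.60. No array of another group had an index below -1.56, so these values cannot tell group and index apart. The labels give no time of sampling, and its part in the Mt2 levels was not tested further. Of 5 large intestine genes, 1 passed in the single deletions: Car1, a carbonic anhydrase abundant in colon, rose by 3.85 ± 0.70 in FADD IEC-KO against Fadd fl/fl (adjusted p = 8.17e-04) and by 4.09 ± 0.70 in CASP8 IEC-KO against Casp8 fl/fl (4.51e-04). The other 4 did not pass, with differences of -0.22 to 0.41 in FADD IEC-KO and -0.04 to 1.71 in CASP8 IEC-KO (highest in Cyp2c55), so the mean over the list moved mainly with Car1. That mean was 6.21 to 7.58 over FADD IEC-KO mice and 6.04 to 6.63 over Fadd fl/fl mice, and 6.69 to 7.87 over CASP8 IEC-KO mice and 6.09 to 6.44 over Casp8 fl/fl mice. In FADD IEC-KO Zbp1 -/- mice, whose Mt2 values overlapped those of Fadd fl/fl, this mean was 7.11 to 7.68. The part of these genes in the Mt2 levels was not tested.

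Slc30a2, the vesicle transporter, varied by 1.35 between the lowest and highest group means. Its log2 intensity was 6.34, 6.18, 6.03, 6.39 and 5.88 in FADD IEC-KO, against 7.62, 7.02, 6.59, 6.95 and 6.95 in Fadd fl/fl. Every FADD IEC-KO array was below every floxed array, a difference of -0.86 ± 0.18, where 1.59% of genes had every array lower. Without FADD IEC-KO replicate 1 the difference was -0.91. In CASP8 IEC-KO mice Slc30a2 was 6.98, 6.22, 6.80, 6.40 and 6.76, against 7.24, 6.46, 7.15, 7.18 and 7.03 in Casp8 fl/fl. These groups overlapped through 1 low floxed mouse, with a difference of -0.38 ± 0.18, or -0.47 without CASP8 IEC-KO replicate 1.

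Slc30a2 differed between the mice with further deletions. The FADD IEC-KO RIPK3 IEC-KO mice had 7.14, 7.12, 7.09, 7.41 and 7.31, every array above FADD IEC-KO by a mean of 1.05 ± 0.18 (2.07-fold), where 1.31% of genes had every array higher. The values were 6.70, 6.65, 6.57, 6.97 and 6.64 in FADD IEC-KO Mlkl -/-, again every array above FADD IEC-KO, by 0.54 ± 0.18, as in 1.28% of genes. In FADD IEC-KO Zbp1 -/- they were 6.79, 5.88, 5.57, 6.50 and 5.52, the widest spread of any group and a difference of -0.11 ± 0.18 from FADD IEC-KO. Loss of RIPK3 in the epithelium thus went with Slc30a2 in the floxed range, loss of MLKL with a level between, and loss of ZBP1 with a mean no higher than in FADD IEC-KO. Set against Fadd fl/fl, the differences were 0.19 ± 0.18, -0.32 ± 0.18 and -0.97 ± 0.18, with overlap in all 3. Within title numbers under 100 and within 200 and over, the first of these was -0.21 and 0.53. The second was -0.62 under 100, where Fadd fl/fl had 2 mice. Against FADD IEC-KO the RIPK3 difference was 0.88 and 1.48, and the ZBP1 difference was -0.16 and 0.13. At 200 and over these were set against 1 FADD IEC-KO mouse.

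Slc30a2 in the triple mutant was 7.23, 7.71, 7.39, 7.23 and 7.46, the highest mean of all groups (7.41 ± 0.20, SD, n = 5). Every one of these arrays was above all of FADD IEC-KO Mlkl -/-, by 0.70 ± 0.18, and above all of CASP8 IEC-KO Mlkl -/-, by 0.57 ± 0.18. Among all genes, 6.87% and 4.61% had every array higher in these comparisons. CASP8 IEC-KO Mlkl -/- had 7.13, 6.88, 6.65, 6.69 and 6.81, a difference of 0.20 ± 0.18 from CASP8 IEC-KO (0.29 without CASP8 IEC-KO replicate 1), with overlap. From Casp8 fl/fl it differed by -0.18 ± 0.18. With the clock index as a covariate the difference from CASP8 IEC-KO was 0.58. That from Casp8 fl/fl was 0.13, with its sign turned. That of the triple mutant from CASP8 IEC-KO Mlkl -/- was 0.16. The index of CASP8 IEC-KO Mlkl -/- did not overlap that of any other group, so these values cannot tell group and index apart. In the order of the 9 means only the step above FADD IEC-KO (0.47) exceeded the pooled SD of 0.30.

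Paneth cell genes moved along with Slc30a2 in several of these comparisons. The mean log2 intensity of 12 Paneth cell genes (lysozyme, defensins, Mptx1 and others) was 8.20 to 9.49 over FADD IEC-KO mice and 10.05 to 11.60 over Fadd fl/fl mice, and 7.21 to 10.47 over CASP8 IEC-KO mice and 10.34 to 11.44 over Casp8 fl/fl mice. The highest values of both deleted groups were those of replicate 1, and the next were 9.12 in FADD IEC-KO and 8.92 in CASP8 IEC-KO. By limma, 10 of the 12 fell in FADD IEC-KO against Fadd fl/fl and 10 in CASP8 IEC-KO against Casp8 fl/fl. Of all genes, 3.73% and 4.17% passed there. The defensin Defa26 fell in both by limma, with differences of -3.36 ± 0.50 (adjusted p = 6.87e-05) and -3.07 ± 0.50 (adjusted p = 2.55e-04). Against FADD IEC-KO, 5 rose in FADD IEC-KO RIPK3 IEC-KO (list range 9.70 to 10.29), 0 changed in FADD IEC-KO Mlkl -/- (8.36 to 9.94; 1 at an unadjusted p under 0.05) and 1 fell in FADD IEC-KO Zbp1 -/- (7.46 to 8.31). For the triple mutant (10.74 to 11.20), 9 rose against FADD IEC-KO Mlkl -/- and 0 passed against CASP8 IEC-KO Mlkl -/- (9.90 to 10.88; 0 at an unadjusted p under 0.05), where Slc30a2 was higher by 0.57. In CASP8 IEC-KO Mlkl -/- 9 rose against CASP8 IEC-KO, where the Slc30a2 difference was 0.20 and 2.78% of all genes passed. Against FADD IEC-KO, the RIPK3, MLKL and ZBP1 groups had 1.55%, 1.61% and 3.32% of all genes passing. For the triple mutant these shares were 7.86% against FADD IEC-KO Mlkl -/- and 3.10% against CASP8 IEC-KO Mlkl -/-. The part of these cells in the Slc30a2 levels was not tested.

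**Figure D3:**
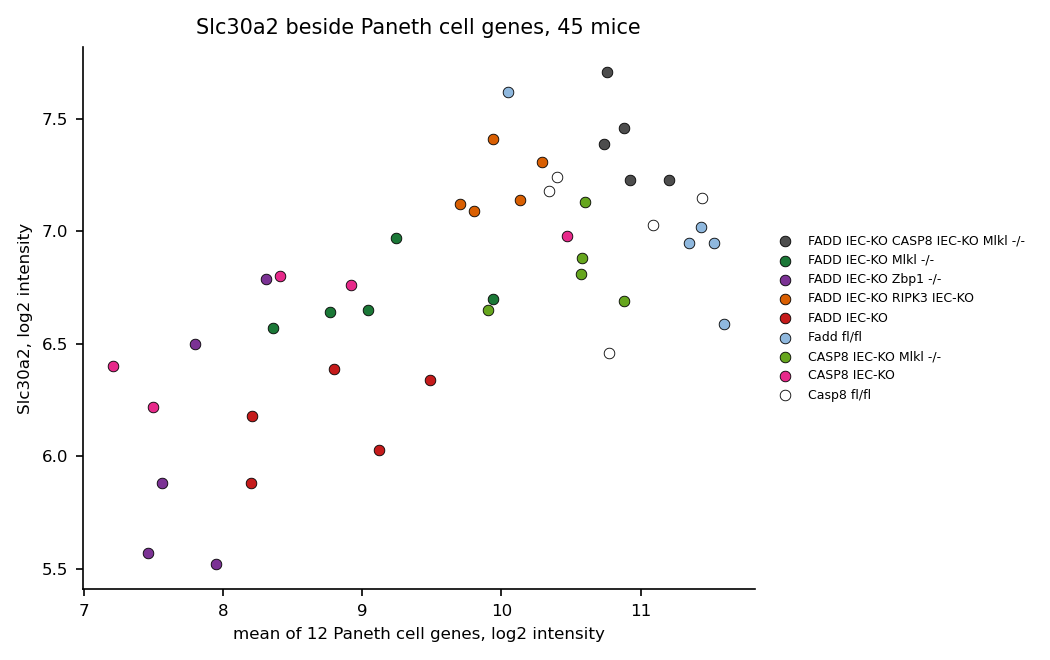
Log2 intensity of Slc30a2 (y axis) against the mean log2 intensity of 12 Paneth cell genes (x axis), 1 point per mouse, coloured by group. FADD IEC-KO Zbp1 -/- and FADD IEC-KO mice hold most of the low Slc30a2 values, at Paneth means of 7.46 to 9.49, and the triple mutants have Slc30a2 between 7.23 and 7.71 at Paneth means of 10.74 to 11.20.

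Slc39a4, the apical zinc importer, stayed within a band of 0.93 over all 45 arrays. In FADD IEC-KO Mlkl -/- its log2 intensity was 9.17, 9.30, 9.12, 9.09 and 9.48, against 9.52, 9.92, 9.51, 9.82 and 9.86 in Fadd fl/fl. Every array of the mutant was lower, by a mean of 0.49 (a difference of -0.49 ± 0.10), and 5.63% of genes had every array lower in that comparison. In the triple mutant it was 9.96, 9.57, 9.81, 9.83 and 9.72, every array above FADD IEC-KO Mlkl -/-, with a difference of 0.54 ± 0.10 (6.87% of genes had every array higher). The other differences were small beside the spread or had overlapping arrays: -0.37 ± 0.10 in FADD IEC-KO against Fadd fl/fl, -0.08 ± 0.10 in CASP8 IEC-KO against Casp8 fl/fl, 0.25 ± 0.10 in FADD IEC-KO RIPK3 IEC-KO mice and 0.17 ± 0.10 in FADD IEC-KO Zbp1 -/- mice against FADD IEC-KO, with 0.23 ± 0.10 for CASP8 IEC-KO Mlkl -/- against CASP8 IEC-KO. The sign turned with the title number in CASP8 IEC-KO against Casp8 fl/fl (-0.14 under 100, 0.09 at 200 and over). It also turned in FADD IEC-KO Zbp1 -/- against FADD IEC-KO (0.21 and -0.02). Both values at 200 and over rested on 1 reference mouse. From lowest to highest the means ran from FADD IEC-KO Mlkl -/- (9.23) to the triple mutant (9.78), and no step between neighbours exceeded the pooled SD of 0.15.

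Slc30a1, the zinc exporter, had the least regular pattern, with a pooled SD (0.22) above the spread of its group means (0.19). It was 9.07, 8.93, 8.97, 9.09 and 8.90 in the triple mutant, against 8.25, 8.78, 8.74, 8.63 and 8.75 in FADD IEC-KO Mlkl -/-, every array higher by a mean of 0.36 ± 0.14, as in 6.87% of genes. CASP8 IEC-KO Mlkl -/- reached a like mean (9.01 ± 0.31, SD, n = 5), a difference of 0.44 ± 0.14 from CASP8 IEC-KO (0.32 without CASP8 IEC-KO replicate 1), with overlap. In FADD IEC-KO Zbp1 -/- the difference from FADD IEC-KO was 0.37 ± 0.14, also with overlap. It was -0.24 ± 0.14 in FADD IEC-KO against Fadd fl/fl and -0.16 ± 0.14 in CASP8 IEC-KO against Casp8 fl/fl. Without FADD IEC-KO replicate 1 the first was -0.30, and without CASP8 IEC-KO replicate 1, the lowest mouse of its group, the second was -0.05. No step of its order exceeded the pooled SD.

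In the triple mutant against FADD IEC-KO Mlkl -/-, Slc30a1, Slc30a2 and Slc39a4, 3 of the 5 genes, had every array higher, beside 6.87% of all genes, and nothing is read from that count. Enterocyte genes also differed in that comparison, with 5 of 10 rising by limma, where 7.86% of all genes passed. Their list range was 10.40 to 10.50 in the triple mutant and 9.87 to 10.12 in FADD IEC-KO Mlkl -/-. These groups differ in the title number as well, and group and number cannot be told apart between them.

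**Figure D4:**
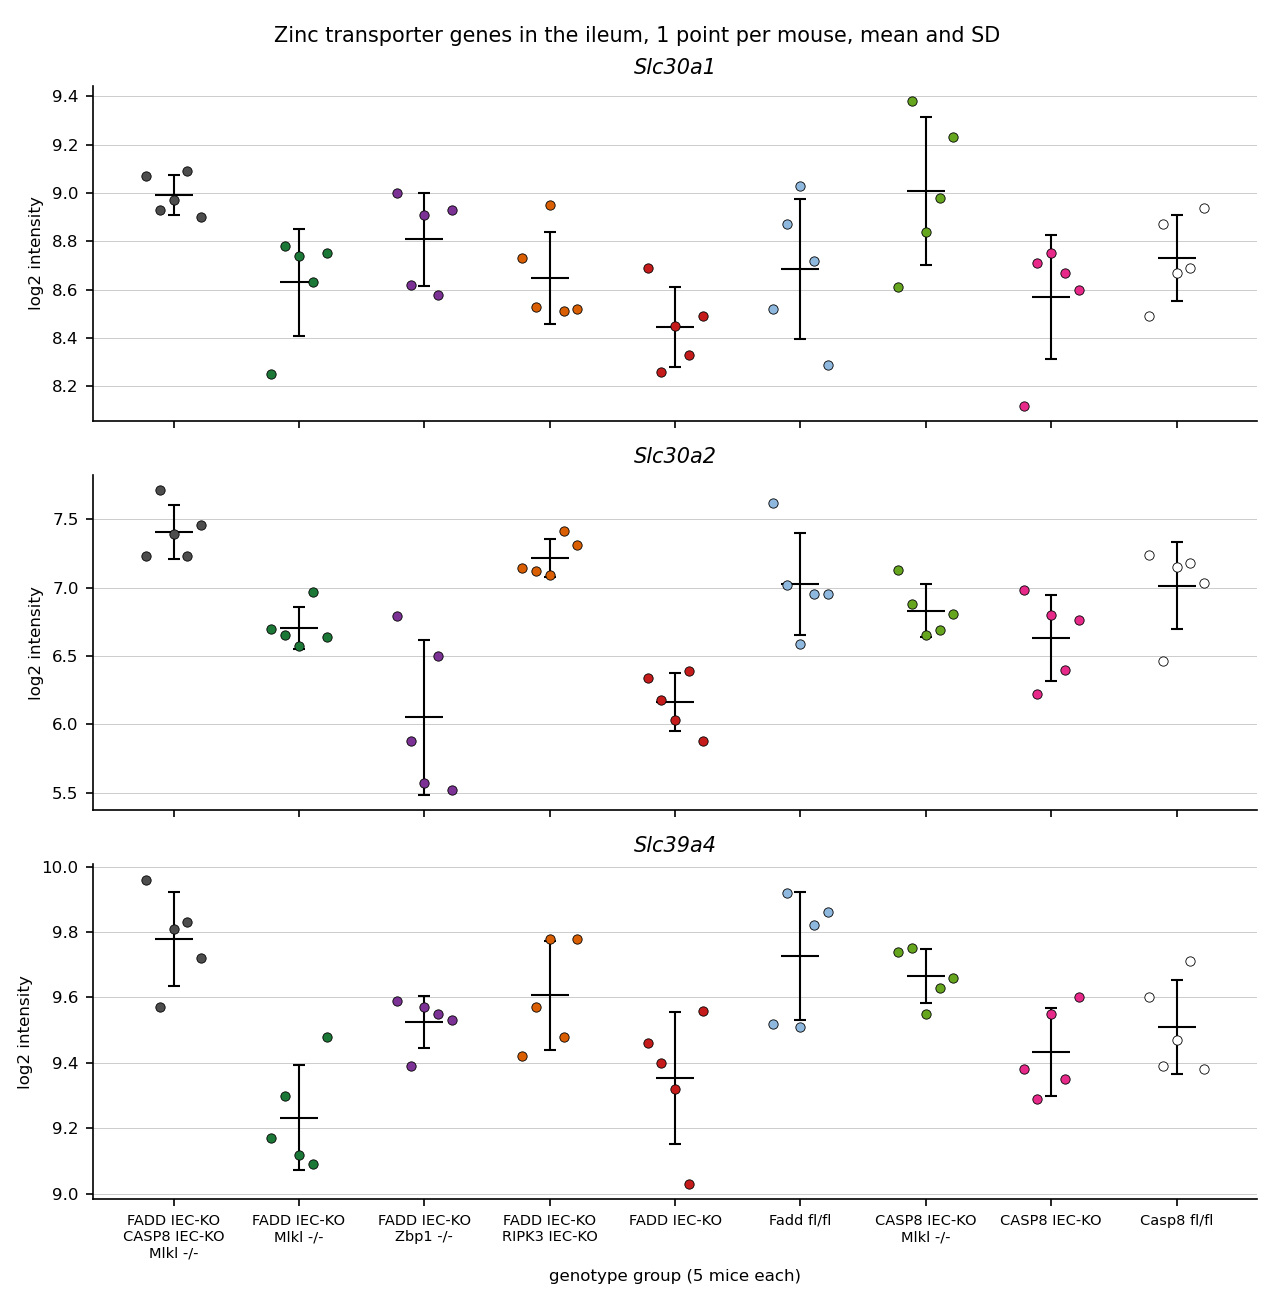
Log2 intensity of Slc30a1, Slc30a2 and Slc39a4 (top to bottom) by genotype group, with 1 point per mouse and the mean and SD of 5 mice in black. Slc30a2 is lowest in FADD IEC-KO Zbp1 -/- (mean 6.05) and FADD IEC-KO (6.16) and highest in the triple mutant (7.41), while Slc30a1 and Slc39a4 span 0.56 and 0.54 between their lowest and highest group means.

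The other 24 genes of zinc handling, the remaining Slc30a exporters and Slc39a importers with Mt3, Mt4 and Mtf1, had 7 calls over the 8 comparisons tested, and 20 of the 24 passed in none of them. Each count is given beside the share of all genes called in that comparison. Slc30a10, an exporter of manganese, had differences between -0.72 and 0.55 without passing. Mtf1, which encodes the zinc sensor, had differences between -0.19 and 0.13 and passed in none. In FADD IEC-KO against Fadd fl/fl, 0 of 24 passed (2 at an unadjusted p under 0.05), with a median difference of 0.01, where 3.73% of all genes passed and their median was 0.00. Likewise 0 of 24 passed in FADD IEC-KO Mlkl -/- against FADD IEC-KO (2 unadjusted, 1.61% of all genes) and in CASP8 IEC-KO Mlkl -/- against CASP8 IEC-KO (1 unadjusted, 2.78% of all genes). Slc39a9, a zinc importer of the secretory pathway with the highest mean of the list, differed by 0.01 ± 0.07, -0.07 ± 0.07 and 0.02 ± 0.07 in these 3 comparisons.

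Slc39a5, whose protein (ZIP5) takes up zinc at the basolateral side of enterocytes, accounted for 4 of the 7 calls. It fell in CASP8 IEC-KO, with values of 8.99 to 9.18 against 9.31 to 9.76 in Casp8 fl/fl, every array lower (-0.52 ± 0.12, limma adjusted p = 0.0106). It was the only 1 of 24 to pass there, where 4.17% of all genes did. It rose in the triple mutant, with 9.96, 9.65, 9.57, 9.80 and 9.70, against 9.01, 8.77, 9.10, 9.01 and 9.26 in FADD IEC-KO Mlkl -/- and against 9.45, 9.08, 8.80, 8.98 and 9.14 in CASP8 IEC-KO Mlkl -/-. Every triple mutant array was higher in both (0.70 ± 0.12, adjusted p = 2.52e-04, and 0.65 ± 0.12, adjusted p = 0.00161).

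In those comparisons 2 of 24 zinc genes rose and 0 fell, against 7.86% and 3.10% of all genes that passed. The other was Slc39a6 against FADD IEC-KO Mlkl -/- (0.30 ± 0.09, adjusted p = 0.0289) and Slc39a7, which encodes an importer that releases zinc from the endoplasmic reticulum, against CASP8 IEC-KO Mlkl -/- (0.37 ± 0.10, adjusted p = 0.0379). With the title number as a block the count was 1 of 24 in each, and against CASP8 IEC-KO Mlkl -/- it was also 1 on leaving out any of 8 of the 10 mice. Slc39a5 also rose in FADD IEC-KO RIPK3 IEC-KO against FADD IEC-KO (0.59 ± 0.12, adjusted p = 0.00843), 1 of 24 where 1.55% of all genes passed. In FADD IEC-KO Zbp1 -/- against FADD IEC-KO, Slc39a8, an importer of manganese and zinc, fell by 0.72 (-0.72 ± 0.17, adjusted p = 0.0155) with overlapping arrays, again 1 of 24 beside 3.32% of all genes. Without CASP8 IEC-KO replicate 1, 3 of 24 passed in CASP8 IEC-KO against Casp8 fl/fl. In a fit of only the 2 groups compared, 0 of 24 passed in CASP8 IEC-KO against Casp8 fl/fl and in these last 2 comparisons. The count was also 0 for FADD IEC-KO RIPK3 IEC-KO without FADD IEC-KO replicate 3, and for FADD IEC-KO Zbp1 -/- without its replicate 1 or without FADD IEC-KO replicate 2 or 3.

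**Figure D5:**
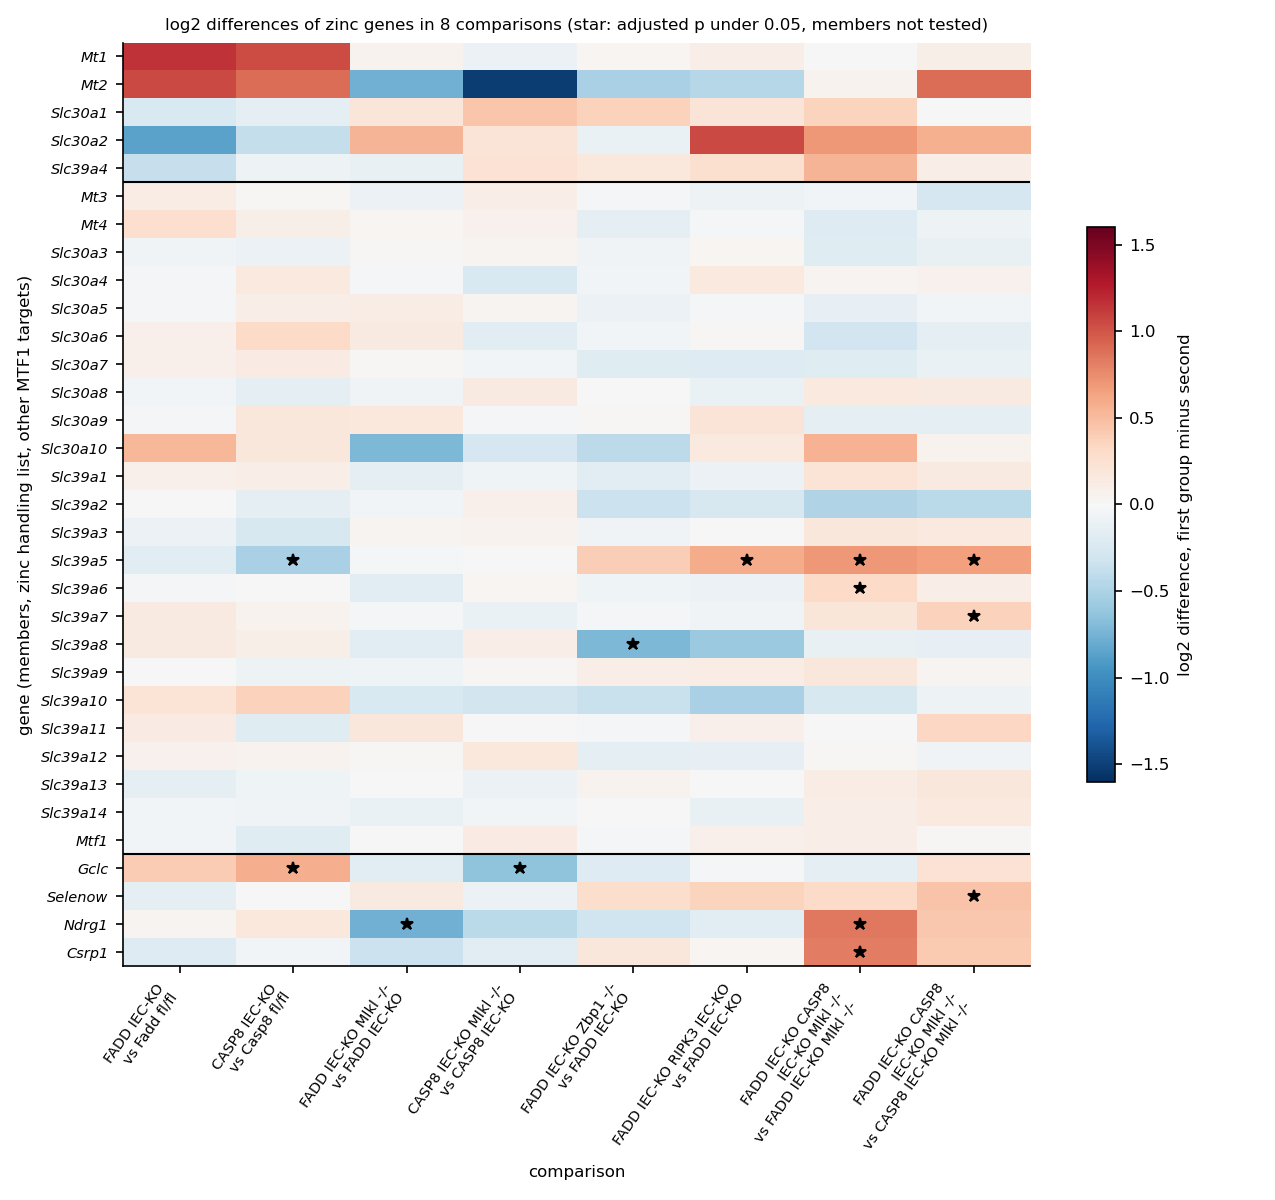
Colour gives the log2 difference, first group minus second, of the 5 genes described (top), 24 other zinc handling genes (middle) and 4 other MTF1 targets (bottom) in 8 comparisons. A star marks an adjusted p under 0.05 by limma; the top 5 genes were not tested. Mt1, Mt2 and Slc30a2 carry the deepest colours of the zinc genes, and Slc39a5 has 4 of the 7 stars of the middle block.

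Of 4 other genes that MTF1 is known to regulate, none passed in FADD IEC-KO against Fadd fl/fl, in which Mt1 and Mt2 were both high (0 of 4 by limma, 1 at an unadjusted p under 0.05). Of all genes, 3.73% passed there, and the shares in the other comparisons are those given above. Gclc, which encodes the catalytic subunit of the enzyme that starts glutathione synthesis, rose in CASP8 IEC-KO against Casp8 fl/fl (0.58 ± 0.13, adjusted p = 0.0101) and fell in CASP8 IEC-KO Mlkl -/- against CASP8 IEC-KO (-0.65 ± 0.13, adjusted p = 0.00205). Ndrg1 fell in FADD IEC-KO Mlkl -/- against FADD IEC-KO (-0.77 ± 0.13, adjusted p = 1.96e-04). In the triple mutant against FADD IEC-KO Mlkl -/-, Ndrg1 (0.84 ± 0.13, adjusted p = 5.29e-05) and Csrp1 (0.82 ± 0.16, adjusted p = 0.00106) rose. Against CASP8 IEC-KO Mlkl -/-, Selenow rose (0.46 ± 0.12, adjusted p = 0.0233). None of the 4 passed in FADD IEC-KO Zbp1 -/- or FADD IEC-KO RIPK3 IEC-KO mice against FADD IEC-KO (2 and 1 at an unadjusted p under 0.05). Csrp1 is also expressed in smooth muscle, and 4 of 8 stroma and muscle genes rose in the same comparison in which it did. Gclm, given below among the NRF2 genes, moved in the same direction as Gclc in both comparisons in which Gclc passed. What regulated these genes here was not tested.

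Oxidative stress genes under NRF2 changed in 3 comparisons, in which 3.73%, 4.17% and 2.78% of all genes passed, in the order given here. Of 8 measured, 2 rose in FADD IEC-KO against Fadd fl/fl: Slc7a11, the cystine carrier (0.63 ± 0.18, adjusted p = 0.0388), and Nqo1, a quinone reductase (0.54 ± 0.11, adjusted p = 0.00286). In CASP8 IEC-KO against Casp8 fl/fl 4 rose, with Gstm1 (0.62 ± 0.17, adjusted p = 0.0284), Nqo1 (0.58 ± 0.11, adjusted p = 0.00132) and Gclm (0.46 ± 0.12, adjusted p = 0.0213) furthest. In CASP8 IEC-KO Mlkl -/- against CASP8 IEC-KO, Gstm1 (-0.90 ± 0.17, adjusted p = 5.92e-04) and Gclm (-0.42 ± 0.12, adjusted p = 0.0421) fell. In the other 5 comparisons none of the 8 passed. The Mt2 arrays did not overlap in the 3 comparisons with calls, but Mt2 also differed in some without a call. It differed by 0.89 ± 0.24 in the triple mutant against CASP8 IEC-KO Mlkl -/-. In FADD IEC-KO Mlkl -/- against FADD IEC-KO the Mt2 difference was -0.77 ± 0.24. The part of NRF2 in the Mt2 levels was not tested. Metallothioneins also respond to glucocorticoids. Of 10 glucocorticoid-induced genes 0 passed in either single deletion against its floxed group (5 and 1 at an unadjusted p under 0.05). In the triple mutant 3 rose against FADD IEC-KO Mlkl -/- (Sgk1, Tsc22d3 and Pdk4), where 7.86% of all genes passed. Against CASP8 IEC-KO Mlkl -/- 1 rose, Per1 (0.80 ± 0.19, limma adjusted p = 0.0136), where 3.10% of all genes passed. Clock genes also passed in that last comparison, as given above. The part of glucocorticoids was not tested.

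The genes most like each of the 5 over the 45 arrays were named by Pearson's r, as a description of arrays that share groups. For Mt1 they were Rps19 (r = 0.75), Rala (0.72), Fa2h (0.71), Ddx56 (0.70) and Nqo1 (0.69), and after group means were subtracted their r was between 0.09 and 0.31. For Mt2 they were Spry2 (0.69), Nek6 (0.68), B4galt6, Gcnt3 and Rps26 (0.67 each), with 0.26 to 0.50 within groups. Mt1 and Mt2 themselves had r = 0.41 over the 45 arrays and 0.58 within groups.

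For Slc30a2 the nearest genes were Slc1a1 (0.85), Slc6a4 (0.83), Slc5a11 and Adgrd1 (0.82 each) and the Paneth cell defensin Defa26 (0.81). Within groups r was 0.78 for Slc6a4, a serotonin carrier, 0.74 for Slc5a11, 0.73 for Adgrd1, 0.56 for Slc1a1 and 0.53 for Defa26. For Slc39a4 they were Wwp2 (0.78), Acp5 (0.75), Pnpla2 (0.74), Capn1 (0.71) and Itgb5 (0.70). For Slc30a1 they were Ext1 (0.73), Trim40, C2, Sptlc2 and Rnf19b (0.71 each), with 0.46 to 0.67 within groups. The 5 genes thus had no gene in common among their nearest.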

How the data were processed

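The values are log2 intensities that the authors deposited, 1 column per array, for 22142 probes. The submitters' processing notes name Affymetrix Expression Console and the Transcriptome Analysis Console, with no versions; the summarisation method and build are not given in the sources used here. Of the probes, 19527 had 1 gene symbol and 2615 had none and were left out. For 33 genes with several probes only the brightest on average was used, which left 19494 genes. Groups followed the sample titles, and replicates were numbered in accession order, which pairs no mice.

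All 45 arrays entered a single linear model in limma 3.58.1 with a mean for each group (R 4.3.3; 36 residual degrees of freedom) with eBayes, and p-values were adjusted over all genes by the Benjamini-Hochberg method within each of 8 comparisons, with calls at an adjusted p under 0.05. A further 5 comparisons only describe the members. The p-values measure variation among mice of a group, shared across the 9 groups, and the number of arrays limits their precision. The fit was tested on simulated data. The members and the gene lists were chosen with earlier results of these data known. Named genes were the members, up to 6 zinc handling genes past the threshold (or the one with the highest mean), up to 3 per other list, the 5 with the highest r to each member and the targeted genes; clock, Car1 and marker values beside a result were added after values were seen.

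Alternatives were a block for the title number, a covariate for sex, quantile normalization, centring, leaving out the dimmest 25% of genes, a fit of only the groups compared, leaving out each mouse and, added after the data were seen, the clock index. The sex index used 3 Y-linked genes with a limit of 5 set after their values were seen, because Xist, planned for it, had no named probe among those used here. No member had several probes, so averaging probes changes nothing. Promoter windows came from RefSeq (GRCm38.p6) for 4 members; Slc39a4 had no entry.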

Additional observations from a re-analysis of the deposited data

Results flagged for a closer look

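In each group of 5 mice, a value was marked where its gap to the nearest mouse was more than 0.71 of the whole range of the group. Chance marks about 1 in 20 groups, and 5 of the 45 combinations of gene and group were marked, all at their lowest mouse. Mt1 was 12.53 in triple mutant replicate 1, with the next mouse at 12.57, in the group with the smallest spread. Mt1 was 12.01 in FADD IEC-KO replicate 1, with the next at 12.58; this mouse had the Fadd intensity nearest to the floxed level. Slc30a1 was 8.12 in CASP8 IEC-KO replicate 1, with the next at 8.60; this mouse had the highest Casp8 intensity of its group. Slc30a2 was 6.46 in Casp8 fl/fl replicate 2, with the next at 7.03, and it is the mouse through which that group overlaps CASP8 IEC-KO. Slc39a4 was 9.39 in FADD IEC-KO Zbp1 -/- replicate 2, with the next at 9.53. The reasons for these values were not tested.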

How the results depend on the processing

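Of 1000 member differences recomputed, 997 stayed within 1 SD of the reported value. In 20 the sign turned, over 9 differences whose reported size was 0.18 or less. The 3 that moved further are Slc30a2 with the clock index as a covariate, 0.58 in CASP8 IEC-KO Mlkl -/- against CASP8 IEC-KO, 0.16 in the triple mutant against CASP8 IEC-KO Mlkl -/- and 0.13, where -0.18 was reported, in CASP8 IEC-KO Mlkl -/- against Casp8 fl/fl. Quantile normalization and centring shifted the median of all genes by 0.04 or less. Counts of all genes called moved by over 1.5 times in several fits. With only the 2 groups compared they were 153 for FADD IEC-KO (727 as reported), 10 for CASP8 IEC-KO (813), 145 for FADD IEC-KO Mlkl -/- (313), 0 for FADD IEC-KO Zbp1 -/- (648) and 19 for FADD IEC-KO RIPK3 IEC-KO (303). With the title block they were 998 for FADD IEC-KO Zbp1 -/-, and 667 and 164 for the triple mutant against FADD IEC-KO Mlkl -/- (1533) and CASP8 IEC-KO Mlkl -/- (605); with the sex index, 128 for FADD IEC-KO RIPK3 IEC-KO. With the clock index they were 1113 for FADD IEC-KO, 1458 for CASP8 IEC-KO, 969 for CASP8 IEC-KO Mlkl -/- (541), 992 for FADD IEC-KO Zbp1 -/-, 52 for FADD IEC-KO RIPK3 IEC-KO and 305 for the triple mutant against CASP8 IEC-KO Mlkl -/-. On leaving out 1 mouse they ranged most widely for CASP8 IEC-KO (204 to 1354) and FADD IEC-KO RIPK3 IEC-KO (53 to 667). The zinc handling counts are of 1 or 2 genes and moved more. In CASP8 IEC-KO against Casp8 fl/fl the count was 2 with the clock index, 0 in the fit of 2 groups, and 1 to 3 on leaving out 1 mouse (3 without CASP8 IEC-KO replicate 1). In FADD IEC-KO Mlkl -/- against FADD IEC-KO it was 0 to 1 on leaving out 1 mouse (1 without FADD IEC-KO replicate 4). In CASP8 IEC-KO Mlkl -/- against CASP8 IEC-KO it was 1 with the clock index. In FADD IEC-KO Zbp1 -/- against FADD IEC-KO it was 2 with the clock index, quantile normalization, centring or the dim genes left out, 0 in the fit of 2 groups, and 0 to 2 on leaving out 1 mouse. In FADD IEC-KO RIPK3 IEC-KO against FADD IEC-KO it was 2 with the title number as a block, 3 without dim genes, 0 in the fit of 2 groups, and 0 to 3 on leaving out 1 mouse. For the triple mutant it was 1 against either Mlkl -/- group with the title number as a block; against FADD IEC-KO Mlkl -/- it was 4 with quantile normalization or without dim genes and 1 to 3 on leaving out 1 mouse, and against CASP8 IEC-KO Mlkl -/- it was 1 with centring and 1 to 2 on leaving out 1 mouse. The causes were not tested. No paired analysis was possible because the labels give no replicate numbers that mice share.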

Other observations

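Genes that handle copper and iron changed in a few comparisons by limma. Of 17, Tfrc, the transferrin receptor, rose in FADD IEC-KO against Fadd fl/fl (0.85 ± 0.20, adjusted p = 0.0125) and fell in CASP8 IEC-KO Mlkl -/- against CASP8 IEC-KO (-0.83 ± 0.20, adjusted p = 0.0126). Cybrd1, a ferric reductase of the brush border, fell in FADD IEC-KO against Fadd fl/fl (-0.60 ± 0.16, adjusted p = 0.0294) and in FADD IEC-KO Zbp1 -/- against FADD IEC-KO (-0.63 ± 0.16, adjusted p = 0.0248). For the triple mutant against FADD IEC-KO Mlkl -/- the copper importer Slc31a1 (0.40 ± 0.10, adjusted p = 0.0103) and the ferroxidase Heph (0.27 ± 0.07, adjusted p = 0.0191) rose. No gene of the list passed in the other 4 comparisons.

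Among 10 genes induced by IL-6 and IL-22 through STAT3, Reg3a, an antimicrobial lectin, fell in FADD IEC-KO against Fadd fl/fl (-1.43 ± 0.30, adjusted p = 0.00337) and rose in FADD IEC-KO RIPK3 IEC-KO against FADD IEC-KO (1.22 ± 0.30, adjusted p = 0.0245). Il18 fell in FADD IEC-KO Mlkl -/- against FADD IEC-KO (-1.29 ± 0.28, adjusted p = 0.00624), and Socs3 rose in the triple mutant against CASP8 IEC-KO Mlkl -/- (0.58 ± 0.15, adjusted p = 0.0192).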
